A study of Mus musculus with 6 samples.

Results

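Autophagy and lysosome genes were followed here in haematopoietic stem cells (HSCs) from the bone marrow of Chrm1-/- and wild type mice. The 49 genes were taken from a list set by function, and 47 of them had a row with a single gene symbol, out of 22180 genes with such a row. Optn, a receptor that brings ubiquitin-tagged cargo into autophagosomes, and Park2, the ubiquitin ligase of damaged mitochondria, had none and were not analysed here. Each gene was read from its row of highest mean over the 6 arrays. A gene was tested where its mean log2 signal reached 6.77, the median of all genes, which left 41 of the 47 genes among 11094 tested.

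The Chrm1-/- group held 3 arrays of HSCs lacking Chrm1, the gene of a muscarinic acetylcholine receptor, and the wild type group held 3 arrays of C57Bl/6 HSCs. The labels give C57Bl/6 as the strain of both groups, and both were taken at steady state, with no treatment named. Cells had been sorted as lineage-negative, Sca1-positive, Kit-positive and Flt3-negative, and RNA was amplified before hybridisation to Affymetrix arrays. The labels name neither the knockout allele, age and sex of the mice nor whether an array is 1 mouse or a pool, so the spread between arrays may be technical.

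Autophagy encloses cytoplasm in a double membrane and delivers it to the lysosome, where acid hydrolases break it down. A kinase complex and a lipid kinase start the membrane, a pair of ubiquitin-like conjugation systems attaches proteins of the Atg8 family to it, and receptors load the cargo. In HSCs the process is known for clearing mitochondria and holding metabolism low, and loss of Atg7 in the blood cells of mice impairs them.

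The genes of the pathway differed little between the genotypes, and none passed the test. Of the 41 genes tested, 24 had a higher and 16 a lower mean signal in Chrm1-/- HSCs, Map1lc3a was equal, and the median difference was 0.06 on the log2 scale, against 0.00 over all 11094 genes. In limma with Benjamini-Hochberg adjustment over all tested genes 0 of the 41 had an adjusted p under 0.05, as did 0 of all genes (0%). At an unadjusted p under 0.05 there was 1, Npc1, which is 2.44% of the 41, against 2.99% of all genes. None of the 41 also differed by at least 1.5-fold, against 1.34% of all genes. For 3 of the 41, Npc1, Becn1 and Atg12, the 3 Chrm1-/- arrays lay above the 3 wild type arrays, which is 7.32%, against 5.79% of all genes whose groups did not overlap in either direction. The shares with an unadjusted p under 0.05 or without overlap lay near those of all genes. Each difference is bounded by its 95% interval, which lay within 2-fold in either direction for 32 of the 41 genes and within 1.5-fold for 22. The 32 genes are 78.0% of the 41, against 83.7% of all genes. The share of all genes within 1.5-fold was not computed.

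**Figure D1:**
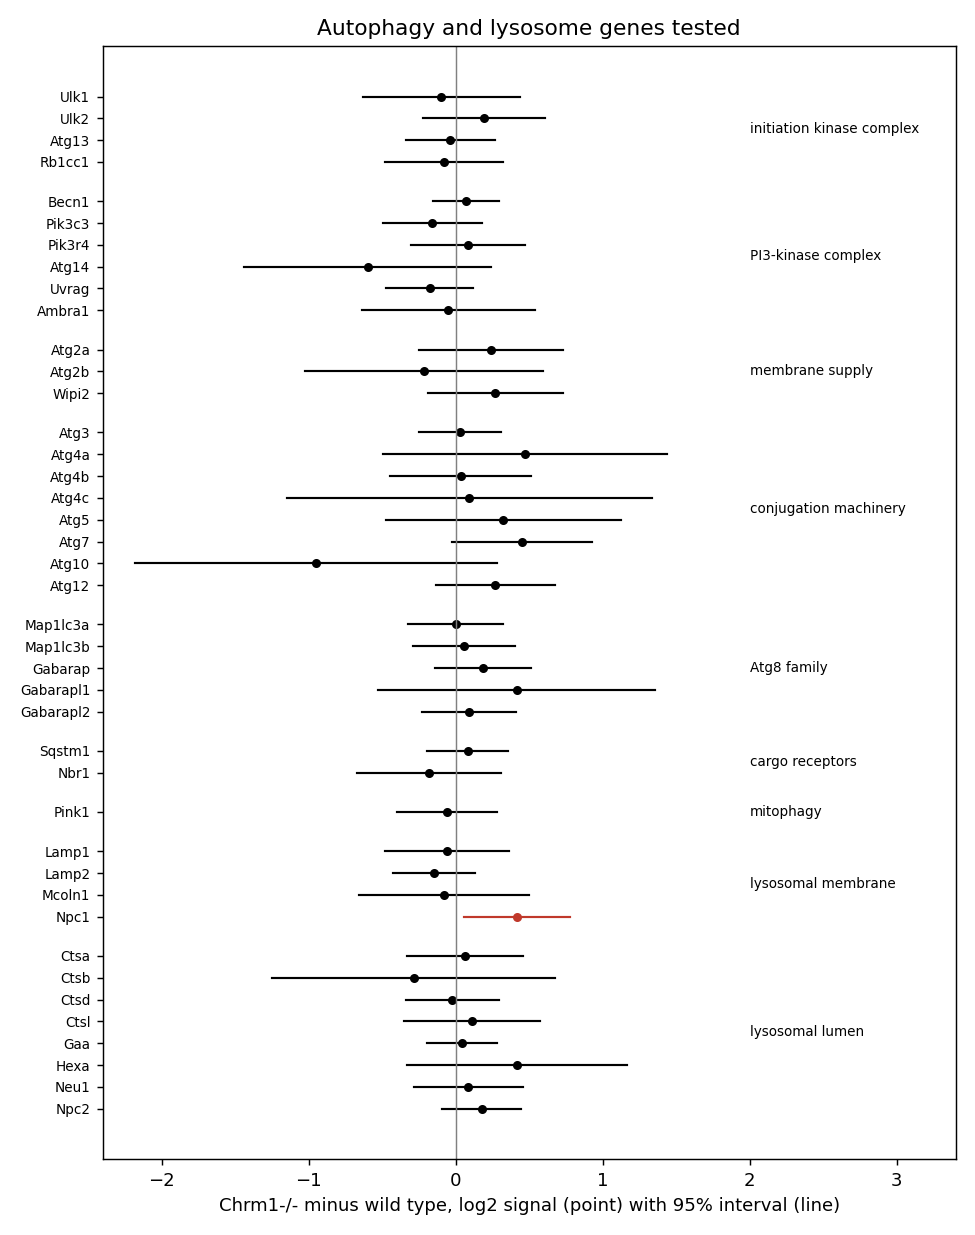
Difference in log2 signal, Chrm1-/- minus wild type, for the 41 autophagy and lysosome genes tested, ordered by role (points, with limma's 95% intervals as lines; 3 arrays per group). The interval of Npc1, in red, is the one that leaves out 0, and the widest ones belong to Atg4c and Atg10.

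The arrays and the sort bear on these values. Array medians ran from 6.51 to 6.56 in Chrm1-/- and from 6.49 to 6.57 in wild type, and the array that correlated least with the rest of its genotype was wild type replicate 3 (mean Pearson r of 0.918 over all rows). Each array but Chrm1-/- replicate 3 correlated more with the other genotype than with its own. The step was small, at 0.9266 against 0.9264 for Chrm1-/- replicate 2 and 0.9225 against 0.9176 for wild type replicate 3. Of 10 HSC and sort genes 9 had a row and all 9 were tested, 4 of them higher and 5 lower in Chrm1-/-, with differences from -0.38 for Slamf1 to 0.38 for Fgd5. Kit read 10.99, 10.86 and 10.79 in Chrm1-/- and 10.95, 10.91 and 10.85 in wild type. Procr, a surface receptor of HSCs, was the one that separated the groups, at 8.16, 8.19 and 8.24 in Chrm1-/- and 8.40, 8.45 and 8.50 in wild type, with an unadjusted p of 0.039 and an adjusted p of 0.996 in limma. Flt3, the marker the sort selected against, ran from 9.95 to 10.29 in Chrm1-/- and from 9.87 to 10.09 in wild type. Macrophages are rich in lysosomes, and of 10 monocyte and macrophage markers 5 reached the level for testing. Of the 10, 7 were higher and 3 lower in Chrm1-/-. The summed linear signal of the 10 ran from 1786 to 2000.3 in Chrm1-/- and from 1823.3 to 2992.9 in wild type. Cd68, a lysosomal glycoprotein of macrophages, read 8.47, 8.16 and 8.19 in Chrm1-/- and 8.79, 9.0 and 10.25 in wild type, with an unadjusted p of 0.031 and an adjusted p of 0.996 in limma. It made 1217.7 of the sum of 2992.9 on wild type replicate 3, and without it the sum of the other 9 ran from 1494 to 1645.7 in Chrm1-/- and from 1380.6 to 1775.2 in wild type. Of 10 granulocyte markers 2 were higher and 8 lower in Chrm1-/-, and the 4 tested were all lower, with differences from -0.44 to -0.07. Of 8 erythroid markers 4 had a row, and all 4 were higher, by 0.13 to 0.23. Of 7 lymphocyte markers with a row 2 were higher and 5 lower. None of those tested in these 3 lists had an unadjusted p under 0.05 in limma. The markers' part in the values below was not tested. In bulk RNA of sorted cells, a change in the mix of cells and a change within each cell cannot be told apart.

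Less each gene's own mean over the 6 arrays, the 41 genes averaged -0.02, 0.02 and 0.05 on the Chrm1-/- arrays and 0.04, 0.00 and -0.09 on the wild type arrays. Wild type replicate 3 was the lowest array and Chrm1-/- replicate 3 the highest, and the groups overlapped. Wild type replicate 3 held the lowest value of 12 of the 41 genes. The median difference of 0.06 became -0.015 without Chrm1-/- replicate 3 and stayed above 0 without each of the other 5 arrays, at 0.03 without wild type replicate 3. Of the 40 genes with a difference other than 0, leaving out some single array turned the sign of 22.

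**Figure D2:**
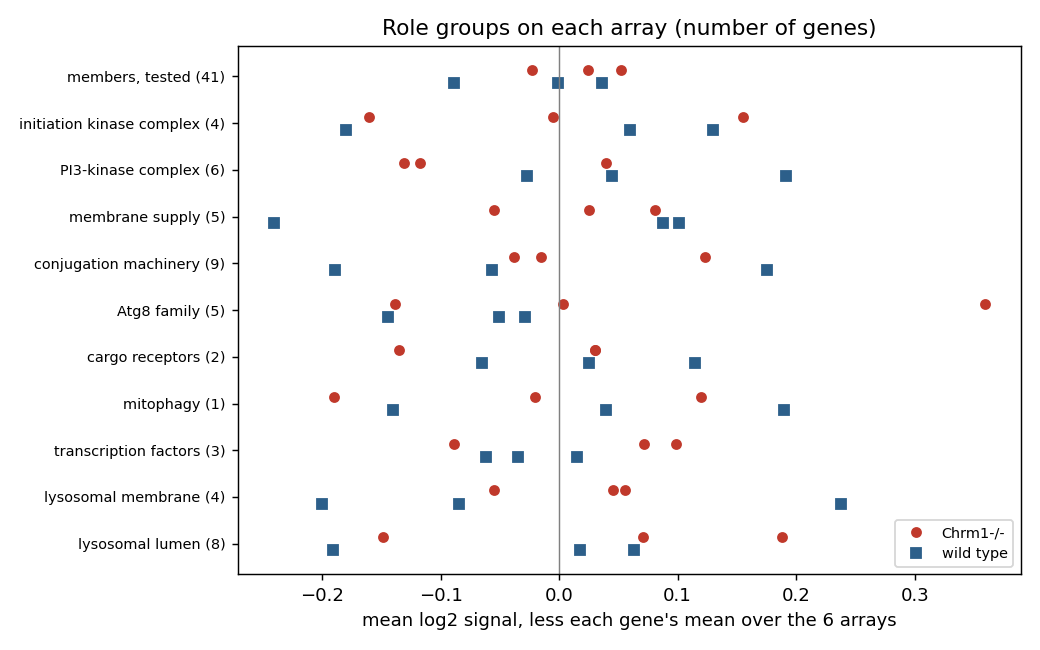
Mean log2 signal of each role group on each array, less each gene's mean over the 6 arrays, with Chrm1-/- arrays as circles and wild type arrays as squares; numbers in brackets count the genes. The groups overlap in every row, and the array farthest from 0 is Chrm1-/- replicate 3 in the Atg8 family, at 0.36.

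Tfeb, Tfe3 and Mitf, transcription factors known for switching on lysosome and autophagy genes, all stayed below the level for testing. Whether they act on this set in these cells was not measured. They are related basic helix-loop-helix proteins known to enter the nucleus when the kinase mTORC1 is inactive. Tfeb read 6.47, 6.47 and 6.50 in Chrm1-/- and 6.43, 6.47 and 6.65 in wild type. Tfe3 read 6.48, 6.79 and 7.09 in Chrm1-/- and 6.64, 6.67 and 6.73 in wild type, and Mitf read 6.55, 6.80 and 6.39 against 6.59, 6.67 and 6.20 in wild type. The arrays of the genotypes overlapped for each of these factors, and with no filter on dim genes their differences had unadjusted p values of 0.700, 0.533 and 0.600 in limma.

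The promoters of the set were searched for the core of the element that these factors bind. Windows of 300 bases, 250 before and 50 from the start of transcription, were taken from RefSeq (GRCm38.p6) and were at hand for 40 of the 49 genes. The hexamer CACGTG, which reads the same on both strands, was in the window of 10 of the 40 genes (25%), against 8.09% of 27025 genes with a window. The longer TCACGTG, which contains it and was searched on both strands, was in 8 of the 40 (20%), against 4.29% of all genes. These promoters were rich in CG pairs, with a median of 20 per window against 8 over all genes, and the hexamer holds a CG pair. Among the 10912 genes with at least as many CG pairs as the lower quartile of the set, 12.6% had the hexamer. The longer motif was in 7.15% of them. In the set, the hexamer was in 6 of the 10 lysosomal genes with a window (60%). It was in 4 of the 30 others (13.3%), near the 12.6% of the CG-rich genes. The genes shown were picked for holding the hexamer, so that they share it is no result. For each of them the stretch around the match nearest upstream of the start is given. It runs 5′ to 3′ on the strand of the gene, with the hexamer in capitals.
Lamp1 (chr8:13159134-13159163, + strand): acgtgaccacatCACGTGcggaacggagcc
Mcoln1 (chr8:3500462-3500491, + strand): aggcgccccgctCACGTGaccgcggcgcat
Ctsa (chr2:164833749-164833778, + strand): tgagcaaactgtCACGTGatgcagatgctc
Ctsd (chr7:142387908-142387937, - strand): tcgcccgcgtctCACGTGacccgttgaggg
Gaa (chr11:119267811-119267840, + strand): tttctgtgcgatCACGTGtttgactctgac
Ctsl (chr13:64370739-64370768, - strand): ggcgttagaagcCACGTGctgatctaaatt
Atg7 (chr6:114670952-114670981, + strand): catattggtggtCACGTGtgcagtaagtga
Atg3 (chr16:45158746-45158775, + strand): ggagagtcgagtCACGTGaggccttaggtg
Atg5 (chr10:44268313-44268342, + strand): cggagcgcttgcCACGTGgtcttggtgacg
Atg14 (chr14:47568418-47568447, - strand): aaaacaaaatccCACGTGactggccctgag

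In Atg5 and Ctsl the hexamer lacked the flanking base of the longer motif, and Lamp1 held 4 copies of the hexamer within its window. All 10 of these genes were tested, and 6 of them had a higher and 4 a lower mean signal in Chrm1-/- HSCs, with a median difference of 0.04. Of the 24 tested genes whose window had no hexamer, 15 were higher and 9 lower, with a median of 0.08. A match is a run of letters and no measure of binding.

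The kinase complex that starts autophagy gave differences between -0.10 and 0.19. Ulk2, one of its related kinases, read 8.71, 9.13 and 8.72 in Chrm1-/- and 8.76, 8.79 and 8.44 in wild type, a difference of 0.19 ± 0.17 (limma's moderated SE, as for all differences below). Its relative Ulk1 read 7.28, 7.63 and 7.96 against 7.63, 8.02 and 7.52 in wild type, with a difference of -0.10 ± 0.22 (SE). Neither kinase separated the groups, and the difference of Ulk2 was 0.05 without Chrm1-/- replicate 2 and 0.08 without wild type replicate 3. Rb1cc1, the FIP200 scaffold that HSCs of mice need, read 9.51, 9.84 and 9.63 in Chrm1-/- and 9.91, 9.85 and 9.46 in wild type, and Atg13, the adaptor of the complex, differed by -0.04 ± 0.13 (SE). None of the 4 genes had an unadjusted p under 0.05.

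The lipid kinase complex marks the site of the growing membrane with phosphatidylinositol 3-phosphate, and 4 of its 6 genes were lower and 2 higher in Chrm1-/-. Becn1, its regulatory core subunit, read 7.90, 7.92 and 7.91 in Chrm1-/- and 7.84 on each of the 3 wild type arrays. The groups were apart by a small step of 0.07 ± 0.09 (SE), with a 95% interval from -0.16 to 0.30. Its standard error rests on the spread that limma borrows from all genes. Atg14, the subunit that directs the complex to autophagosomes, read 6.77, 6.77 and 6.60 in Chrm1-/- and 8.10, 6.71 and 7.13 in wild type. The Chrm1-/- arrays were close together and the wild type arrays lay up to 1.39 apart, and the 95% interval around the difference of -0.60 ran from -1.44 to 0.24. It was -0.21 without wild type replicate 1, and -0.90 with an unadjusted p of 0.030 in limma without wild type replicate 2. Uvrag, which takes the place of Atg14 in another complex on endosomes, read 10.35, 10.45 and 10.61 in Chrm1-/- and 10.77, 10.56 and 10.61 in wild type, a difference of -0.18 ± 0.12 (SE). The catalytic subunit Pik3c3 differed by -0.16 ± 0.14 (SE), its partner Pik3r4 by 0.08 ± 0.16 (SE) and the Beclin-binding scaffold Ambra1 by -0.05 ± 0.24 (SE).

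Genes that feed lipid to the membrane or read the phosphoinositide on it leaned in both directions. Wipi2, which binds the lipid and recruits the conjugation enzymes, read 7.89, 8.28 and 8.37 in Chrm1-/- and 7.93, 8.15 and 7.65 in wild type, a difference of 0.27 ± 0.19 (SE) that ran from 0.14 without wild type replicate 3 to 0.42 without Chrm1-/- replicate 1. The lipid transfer proteins encoded by Atg2a and Atg2b differed by 0.24 ± 0.20 (SE) and -0.22 ± 0.33 (SE), and the arrays of the genotypes overlapped for both. Wipi1, a relative of Wipi2, and Atg9a, the scramblase of the vesicles that seed the membrane, were below the level for testing. Wipi1 read 6.84, 6.73 and 6.86 in Chrm1-/- and 6.48, 6.39 and 6.92 in wild type. Atg9a read 6.37, 6.62 and 6.38 in Chrm1-/- and 6.48, 6.56 and 7.33 in wild type, where replicate 3 was the high array.

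Of 8 tested genes of the conjugation systems 7 were higher and 1 lower in Chrm1-/-, and none had an unadjusted p under 0.05. Atg7, the activating enzyme shared by both systems, read 7.98, 8.40 and 7.70 in Chrm1-/- and 7.72, 7.47 and 7.54 in wild type. The lowest Chrm1-/- array lay just under the highest wild type array, and the difference was 0.45 ± 0.20 (SE), or 1.37-fold, with an unadjusted p of 0.061 in limma. Without Chrm1-/- replicate 3 it was 0.61, with an unadjusted p of 0.018 in limma. Without Chrm1-/- replicate 2 it was 0.26, with an unadjusted p of 0.148. Leaving out any array other than Chrm1-/- replicate 3 gave Atg7 an unadjusted p of 0.073 to 0.153. Atg12, the ubiquitin-like protein joined to Atg5, read 8.24, 8.25 and 8.73 in Chrm1-/- and 8.03, 8.16 and 8.22 in wild type. The groups did not overlap, by a gap of 0.02 between the nearest arrays, and differed by 0.27 ± 0.17 (SE), or by 0.11 without Chrm1-/- replicate 3. Atg10, the enzyme that hands Atg12 to Atg5, was the one lower gene, by -0.95 ± 0.51 (SE), and lay farthest from 0 among the 41 genes. It read 9.17, 7.74 and 7.17 in Chrm1-/- and 8.67, 8.98 and 9.28 in wild type, so Chrm1-/- replicate 1 lay among the wild type arrays and the other two lay below them. The 95% interval ran from -2.18 to 0.28. Without Chrm1-/- replicate 1 the difference of Atg10 was -1.52, with an unadjusted p under 0.05 in limma and no adjusted call. It was -0.81 without Chrm1-/- replicate 2 and -0.52 without Chrm1-/- replicate 3. No other setting gave Atg10 an unadjusted p under 0.05.

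Of the remaining conjugation genes, Atg5, Atg4a and Atg4c were spread over more than 1 log2 unit between the arrays of a genotype. Atg5 read 8.40, 8.88 and 8.77 in Chrm1-/- and 8.97, 8.40 and 7.71 in wild type, and the proteases Atg4a, Atg4b and Atg4c, which trim the Atg8 proteins, differed by 0.47 ± 0.40 (SE), 0.03 ± 0.20 (SE) and 0.09 ± 0.51 (SE). Atg4a read 8.92, 8.59 and 8.28 in Chrm1-/- and 8.62, 8.52 and 7.24 in wild type, where replicate 3 stood low, and without that array its difference was 0.03. Atg4c ran from 6.88 to 8.43 in Chrm1-/- and from 7.13 to 8.49 in wild type, and its 95% interval, from -1.15 to 1.33, does not exclude a 2-fold change either way. Atg3, the enzyme that joins Atg8 proteins to lipid, was steady, at 11.00, 11.08 and 11.18 in Chrm1-/- and 11.18, 10.95 and 11.04 in wild type. Atg16l1, which brings the Atg12 conjugate to the membrane, was not tested for its low signal. It read 6.57, 6.57 and 6.62 in Chrm1-/- and 6.72, 6.77 and 7.17 in wild type, so that the Chrm1-/- arrays were the lower ones, and with no filter on dim genes its difference of -0.30 ± 0.14 (SE) had an unadjusted p of 0.070 in limma.

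The Atg8 family, whose lipid-bound forms mark the autophagosome, had 4 genes higher in Chrm1-/- and Map1lc3a equal, with differences from 0.00 to 0.41. Gabarap read 11.38, 11.37 and 11.56 in Chrm1-/- and 11.05, 11.41 and 11.29 in wild type, a difference of 0.19 ± 0.14 (SE). It was 0.09 without wild type replicate 1, and a second row of the gene differed by 0.06. Map1lc3b, which encodes the LC3B used to count autophagosomes, read 10.58, 10.55 and 10.92 in Chrm1-/- and 10.57, 10.76 and 10.55 in wild type. Gabarapl1 read 9.32, 8.71 and 10.01 in Chrm1-/- and 9.27, 8.38 and 9.15 in wild type. Chrm1-/- replicate 3 was the highest array for Map1lc3a, Map1lc3b, Gabarap, Gabarapl1 and Gabarapl2. The groups overlapped for each of the 5 genes. Map1lc3a, at 6.67, 6.71 and 7.01 in Chrm1-/- and 6.85, 6.69 and 6.85 in wild type, stood just above the level for testing, and Gabarapl2 differed by 0.09 ± 0.13 (SE).

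Cargo receptors and the mitophagy kinase gave small differences. Sqstm1, the p62 receptor for ubiquitin-tagged proteins, read 9.38, 9.63 and 9.38 in Chrm1-/- and 9.40, 9.37 and 9.38 in wild type, with a difference of 0.08 ± 0.11 (SE). Nbr1, a receptor of like build, read 9.21, 8.63 and 9.21 in Chrm1-/- and 9.0, 9.21 and 9.38 in wild type. Its difference of -0.18 ± 0.20 (SE) rested on Chrm1-/- replicate 2, and without that array it was 0.01. Pink1, the kinase that flags damaged mitochondria, read 7.09, 7.26 and 7.40 in Chrm1-/- and 7.47, 7.14 and 7.32 in wild type, and its difference of -0.06 ± 0.14 (SE) was 0.02 without Chrm1-/- replicate 1 and also without wild type replicate 1.

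**Figure D3:**
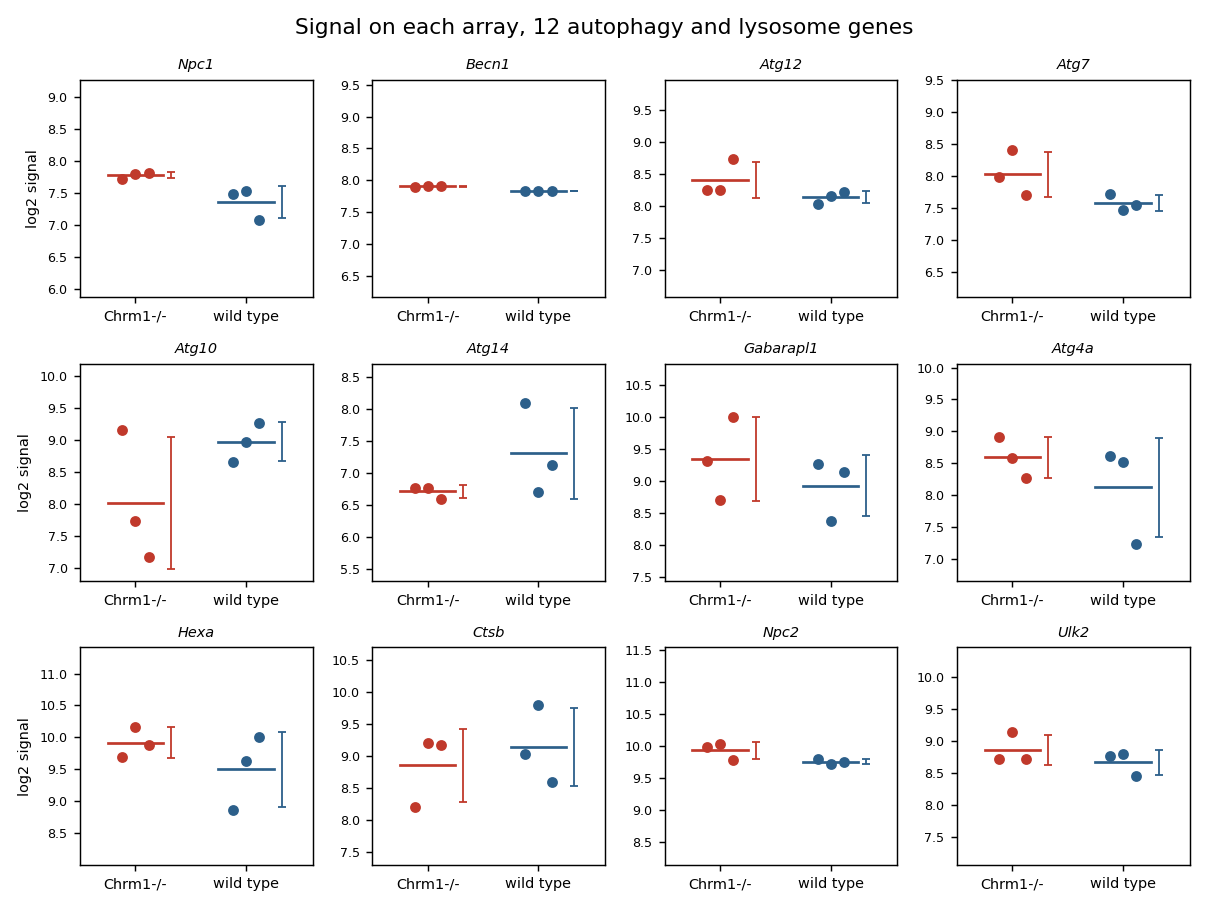
Log2 signal of 12 autophagy and lysosome genes on each array, with Chrm1-/- arrays left and wild type arrays right in each panel (points, arrays; horizontal line, mean; vertical bar, SD, n = 3); every panel spans the same range of log2 units. Npc1, Becn1 and Atg12 separate the genotypes, by narrow gaps for Becn1 and Atg12, and single arrays lie apart in Atg10, Atg14 and Atg4a.

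Among the lysosomal membrane genes, Npc1, the transporter that moves cholesterol out of the lysosome, was higher in Chrm1-/- at the unadjusted level, and the other 3 genes were slightly lower. Npc1 read 7.73, 7.80 and 7.82 in Chrm1-/- and 7.49, 7.53 and 7.08 in wild type. All 3 Chrm1-/- arrays lay above all 3 wild type arrays, with wild type replicate 3 the lowest. The difference of 0.42 ± 0.15 (SE), or 1.33-fold with a 95% interval from 1.04 to 1.72, had an unadjusted p of 0.031 and an adjusted p of 0.996 in limma. It kept its sign under the 13 other settings that tested it, at 0.27 to 0.50, and the unadjusted p was under 0.05 in 8 of them. Leaving out Chrm1-/- replicate 1, 2 or 3 gave 0.054, 0.074 and 0.077. A second, dimmer row of the gene did not show the difference, at 5.59, 5.49 and 5.53 in Chrm1-/- and 5.57, 5.57 and 5.62 in wild type, and with both rows averaged Npc1 lay below the level for testing.

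Lamp2 and Lamp1 encode the abundant glycoproteins that coat the inside of the lysosomal membrane. Lamp2 read 10.47, 10.34 and 10.22 in Chrm1-/- and 10.56, 10.51 and 10.41 in wild type, a difference of -0.15 ± 0.11 (SE). Lamp1 read 9.92, 9.68 and 9.68 in Chrm1-/- and 10.15, 9.66 and 9.65 in wild type, where replicate 1 was high. Mcoln1, a cation channel of the lysosome, differed by -0.08 ± 0.24 (SE), and the groups overlapped for all of these genes.

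Inside the lysosome, 6 of 8 genes were higher and 2 lower in Chrm1-/-, none with an unadjusted p under 0.05. Among 34 further lysosome genes, taken up below, the split went the other way, with 13 higher and 21 lower. Npc2, the soluble protein that passes cholesterol to Npc1, read 9.98, 10.03 and 9.79 in Chrm1-/- and 9.80, 9.72 and 9.75 in wild type. The lowest Chrm1-/- array lay 0.01 under the highest wild type array, and the difference was 0.18 ± 0.11 (SE), with an unadjusted p of 0.162. Hexa, the alpha subunit of the hexosaminidase that degrades gangliosides, read 9.69, 10.17 and 9.89 in Chrm1-/- and 8.86, 9.64 and 10.00 in wild type, a difference of 0.42 ± 0.31 (SE). Gaa, the glycogen-degrading alpha-glucosidase, read 7.75 on all 3 Chrm1-/- arrays and 7.63, 7.75 and 7.75 in wild type. The same value on 4 or more arrays was found for 652 of the 22180 genes (2.94%) and, in this set, for Gaa alone. On 3 or more arrays it was found for 8 of the 47 genes of the set (17.0%), Becn1 among them. That share was not computed over all genes.

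The cathepsins, proteases of the lysosome, had differences of either sign. Ctsd read 10.47, 10.58 and 10.72 in Chrm1-/- and 10.46, 10.62 and 10.76 in wild type, a difference of -0.02 ± 0.13 (SE). Ctsb read 8.20, 9.20 and 9.17 in Chrm1-/- and 9.03, 9.80 and 8.60 in wild type, a difference of -0.29 ± 0.40 (SE) with arrays of each genotype on both sides of the other. Ctsl differed by 0.11 ± 0.19 (SE), the carboxypeptidase Ctsa by 0.06 ± 0.16 (SE) and the sialidase Neu1 by 0.09 ± 0.15 (SE). For Ctsd the interval, from -0.34 to 0.29, leaves out changes beyond 1.5-fold.

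Other genes of the pathway, 103 in number from a list set by function, covered the proton pump, mTORC1 and AMPK signalling and further autophagy and lysosome genes. Of these, 94 had a row and 86 were tested, with 38 higher, 48 lower and a median difference of -0.02 in Chrm1-/-. In limma 0 passed the adjusted threshold and 2 had an unadjusted p under 0.05, or 2.33%, against 2.99% of all genes. Atp6v1f, a subunit of the pump that acidifies lysosomes, read 7.73, 8.42 and 7.88 in Chrm1-/- and 7.07, 7.72 and 7.35 in wild type. The groups did not overlap, by a gap of 0.01, and the difference was 0.63 ± 0.24 (SE). Mlst8, a subunit of the mTOR complexes, read 6.99, 6.69 and 6.58 in Chrm1-/- and 7.78, 7.43 and 6.92 in wild type, a difference of -0.62 ± 0.24 (SE) with 1 Chrm1-/- array among the wild type ones. Both had an adjusted p of 0.996. Of the 86 genes 4, or 4.65%, had groups that did not overlap, against 5.79% of all genes. Besides Atp6v1f these were Epg5, a tether for autophagosomes, Ppt1, a lysosomal thioesterase, and Cln3, a lysosomal membrane protein. Ppt1 read 10.91, 10.83 and 10.85 in Chrm1-/- and 10.56, 10.74 and 10.63 in wild type, a difference of 0.22 ± 0.10 (SE). Cln3 read 8.07, 8.27 and 8.31 in Chrm1-/- and 8.57, 8.38 and 9.18 in wild type, a difference of -0.49 ± 0.22 (SE). Epg5 read 7.55, 7.32 and 7.33 in Chrm1-/- and 7.29, 7.29 and 7.25 in wild type. None of these 3 had an unadjusted p under 0.05, and the 15 pump genes tested were split between 8 higher and 7 lower. The 34 further lysosome genes tested had 13 higher and 21 lower. The 18 further autophagy genes had 10 higher and 8 lower, and the 19 mTORC1 and AMPK genes 7 higher and 12 lower.

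**Figure D4:**
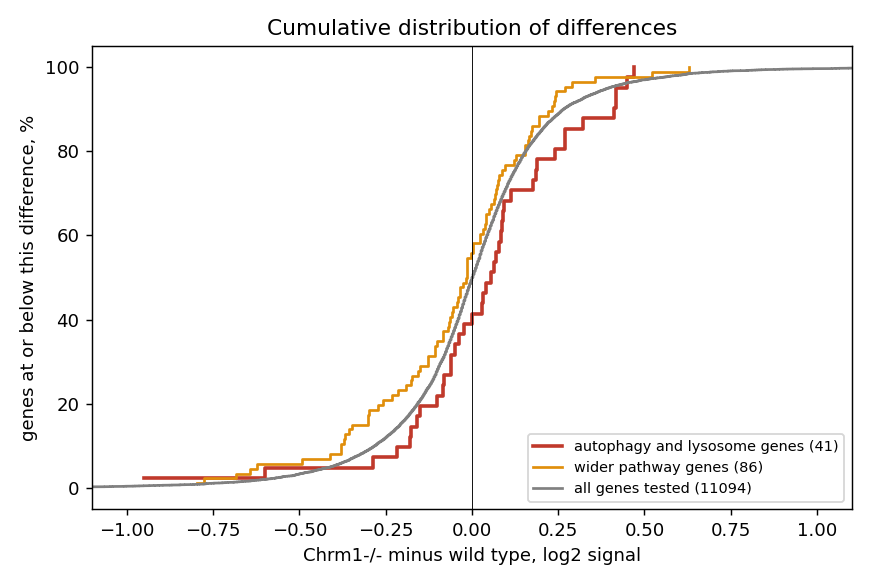
Share of genes, in percent, at or below each difference in log2 signal, Chrm1-/- minus wild type, for the 41 autophagy and lysosome genes, the 86 wider pathway genes and all 11094 genes tested. The medians are 0.06, -0.02 and 0.00, and no gene of either set passed the adjusted threshold.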

How the data were processed

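Per the series design text, the authors ran the arrays through the Affymetrix analysis software; its version and its way of summarizing and normalizing probes are not stated there. The deposited values, made by the authors with that software, were read as log2 signals because of their range, 3.02 to 13.67, since no scale is named; they were used without further scaling. Of 41345 rows, 23521 had 1 gene symbol, 1814 had several and 16010 had none in the platform annotation; rows with several or none were left out. Chrm1-/- was compared with wild type by limma 3.58.1 in R 4.3.3 (lmFit, eBayes, two-sided, Benjamini-Hochberg over 11094 genes, threshold 0.05), tested on simulated data. The number of arrays limits the precision: the median standard error over the 41 genes was 0.17, and an exact permutation test of 3 against 3 arrays cannot go below p = 0.1, so none was run. By rule, values were given on every array for genes of the set with an unadjusted p under 0.05 or no overlap. The rule also took the smallest p and highest signal in each role. Ulk1, Wipi1, Atg9a, Atg10, Atg4a, Atg5, Map1lc3a, Map1lc3b, Gabarapl1, Tfeb, Mitf, Lamp1, Hexa, Gaa and Ctsb met no part of it but were also given. Of these, Atg10, Atg4a, Gabarapl1, Hexa and Ctsb were also plotted array by array. Wider pathway genes were named by an unadjusted p under 0.05, and Epg5, Ppt1, Cln3 and the markers after their values were seen. Members, lists and this rule were chosen with earlier results of these data known. Alternatives covered the signal filter, scaling, rows per gene, moderation, array weights, the replicate number and each array left out.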

Additional observations from a re-analysis of the deposited data

How the results depend on the processing

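The 3 arrays per genotype limit what these data can show. Under all 15 alternatives 0 of the autophagy and lysosome genes and 0 wider pathway genes passed the adjusted threshold. Over all genes 1 passed with no moderation, and 0 to 1 on leaving out an array. The autophagy and lysosome genes with an unadjusted p under 0.05, 1 as reported, numbered 0 with the filter at the 75th percentile, median centring, the mean of all rows, the replicate block or at least 1.5-fold, 2 with no moderation (Becn1 besides Npc1) or array weights (Atg7 besides Npc1), and 0 to 2 on leaving out an array. With the 75th percentile filter and the mean of all rows Npc1 was not tested. With median centring and the replicate block it was tested, with unadjusted p values of 0.054 and 0.058 in limma. With no moderation the p of Becn1 rests on its own spread, with an SD of 0.00 in wild type. The share of all genes with an unadjusted p under 0.05 ran from 2.3% with no moderation to 4.7% without wild type replicate 3. It was 4.0% with array weights, and 1.34% of all genes also reached 1.5-fold in the main fit. Non-overlapping genes, 3 as reported, numbered 1 with the 75th percentile filter (Npc1 and Becn1 not tested), 2 with quantile normalization (Atg12 lost), median centring (Becn1 lost) or the mean of all rows (Npc1 not tested), 4 with no filter (Atg16l1 besides) and 4 to 7 on leaving out an array, where fewer arrays make overlap rarer by construction. The share of all genes without overlap was not computed under these settings, so these counts have no background. Wider pathway genes with an unadjusted p under 0.05, 2 as reported, numbered 0 with the 75th percentile filter (Atp6v1f and Mlst8 not tested), 1 with quantile normalization, no moderation or array weights, 4 with the replicate block and 1 to 5 on leaving out an array. The median difference ran from -0.015 (without Chrm1-/- replicate 3) to 0.087 on leaving out an array. Of 159 values of 11 genes under other settings 3 changed sign, all small: Pink1 ran from -0.145 to 0.02 and Nbr1 from -0.28 to 0.013. These 11 genes were picked from the same data, by an unadjusted p under 0.05, no overlap or the smallest p in their role. Settings of the filter, moderation and replicate block cannot move a difference, so this count is no measure of stability. Over the 40 genes with a difference other than 0, leaving out some single array turned the sign of 22. Other causes were not tested. Equal replicate numbers did not pair arrays: their deviations correlated at -0.03, 0.01 and -0.01.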
